A study of Rattus norvegicus with 16 samples.

Results

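The thick ascending limb of the loop of Henle is the tubule segment that fills much of the renal outer medulla, and 7 genes that serve its salt transport were followed here: Umod, Kcnj1, Bsnd, Atp1b1, Fxyd2, Ptger3 and Casr. They were chosen by name for their function, out of 15284 genes with a named probe on the array. Earlier results of these data were known at the choice, and all 7 genes had at least 1 probe. The outer medulla came from male Crl:CD Sprague-Dawley rats that were 5 weeks old when dosing began. Treated rats received 2-amino-4-nitrophenol (ANP, a nitroaromatic compound) by gavage once daily at 750 mg/kg/day in corn oil, and vehicle rats received corn oil alone. One-colour Cy3 microarrays were run on 16 RNA samples. On days 1 and 7 each group was 1 array of RNA mixed from 3 animals, and on days 14 and 28 each group was 3 arrays of 1 animal each. In whole-tissue RNA, fewer cells of a type and less RNA per cell cannot be told apart.

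The thick ascending limb takes up sodium, potassium and chloride from the tubular fluid while holding back water, and so dilutes the fluid and builds the salt gradient of the medulla. Potassium returns to the lumen through the channel ROMK (Kcnj1), chloride leaves the cell with the help of the channel subunit barttin (Bsnd), and sodium leaves through the sodium pump, whose beta1 subunit is Atp1b1 and whose gamma subunit is Fxyd2. The segment secretes uromodulin (Umod), and its transport is restrained by the calcium-sensing receptor (Casr) and by the prostaglandin E2 receptor EP3 (Ptger3). Slc12a1, the cotransporter that loads the salt, had no named probe and was not analysed here.

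Promoter sequence upstream of the annotated gene is shown for Ptger3, the gene with the widest swings between arrays, and for Bsnd, whose day 28 values in treated rats all lay above those in vehicle rats on the probe used, by a margin of 0.0010. Both come from RefSeq on build GRCr8 and are written 5′ to 3′ on the strand of the gene. Capitals mark a GC box (GGGCGG, read on the other strand). The Ptger3 stretch is chr2:249264832-249264984 on the plus strand, and the Bsnd stretch is chr5:126489390-126489639 on the minus strand.
Ptger3: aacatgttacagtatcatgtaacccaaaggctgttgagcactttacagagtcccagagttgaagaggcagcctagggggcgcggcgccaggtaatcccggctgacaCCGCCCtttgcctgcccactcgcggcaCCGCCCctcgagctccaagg
Bsnd: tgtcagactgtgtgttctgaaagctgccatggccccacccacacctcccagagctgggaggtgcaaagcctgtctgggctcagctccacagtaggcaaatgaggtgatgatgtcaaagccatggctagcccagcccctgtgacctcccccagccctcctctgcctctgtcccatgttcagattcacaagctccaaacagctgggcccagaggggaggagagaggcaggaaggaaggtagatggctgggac

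The 153 bases before Ptger3 held 2 GC boxes, starting 47 and 20 bases before the annotated gene, and their GC content was 60.1%. A GC box was found in 26.2% of 33469 rat windows of that length. The 250 bases before Bsnd had a GC content of 59.2% and held none of the 6 motifs searched on both strands: the GC box (GGGCGG), the CCAAT box (CCAAT), the TATA box (TATAAA), the octamer (ATGCAAAT), part of the HNF1 site (GTTAAT) and part of the estrogen-related receptor site (AAGGTCA). Of 250-base windows, 30.5% held a GC box. These matches describe letters in a window and were not set against any binding data. The windows of Umod, Kcnj1 and Casr had too few bases outside the annotated gene and are not printed, and Atp1b1 and Fxyd2 had no entry in the table.

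All 14 probes of the 7 genes were well above background on all 16 arrays, and none was saturated. Levels below are the log2 of the processed signal over the array's 75th percentile, so that 0 is the signal of the probe at that percentile; levels of different probes are not compared. A difference is the log2 ratio of ANP over vehicle of the same day, with limma's standard error (SE) and 95% interval, and a gene was called when limma's adjusted p over 11849 genes was under 0.05. The signal at the 75th percentile ran from 810 to 1324 across arrays, and 64.8% to 69.6% of probes were well above background. The arrays lay on 4 slides. Slide 1 held the 3 vehicle arrays of day 14 and ANP replicate 1 of day 14, slide 2 the other day 14 ANP arrays and the 3 vehicle arrays of day 28, slide 3 the 3 ANP arrays of day 28, and slide 4 the 4 pools. At day 28 slide and treatment therefore cannot be told apart, and between pools and later days neither can slide, pooling and age.

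None of the 7 genes was called at day 14 or at day 28. At day 14, 0.481% of all genes tested were called (0.363% higher and 0.118% lower), and at day 28, 7.11% (4.47% higher and 2.63% lower). The 7 log2 ratios ran from -0.03 to 0.27 at day 14 (median 0.09, against 0.01 for all genes) and from -0.14 to 0.33 at day 28 (median 0.16, against 0.02 for all genes). All 7 intervals lay within a 2-fold change in either direction at both days; 5 lay within 1.5-fold at day 14 and 4 at day 28. The 95% intervals are per gene and are not adjusted for the number of genes.

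**Figure D1:**
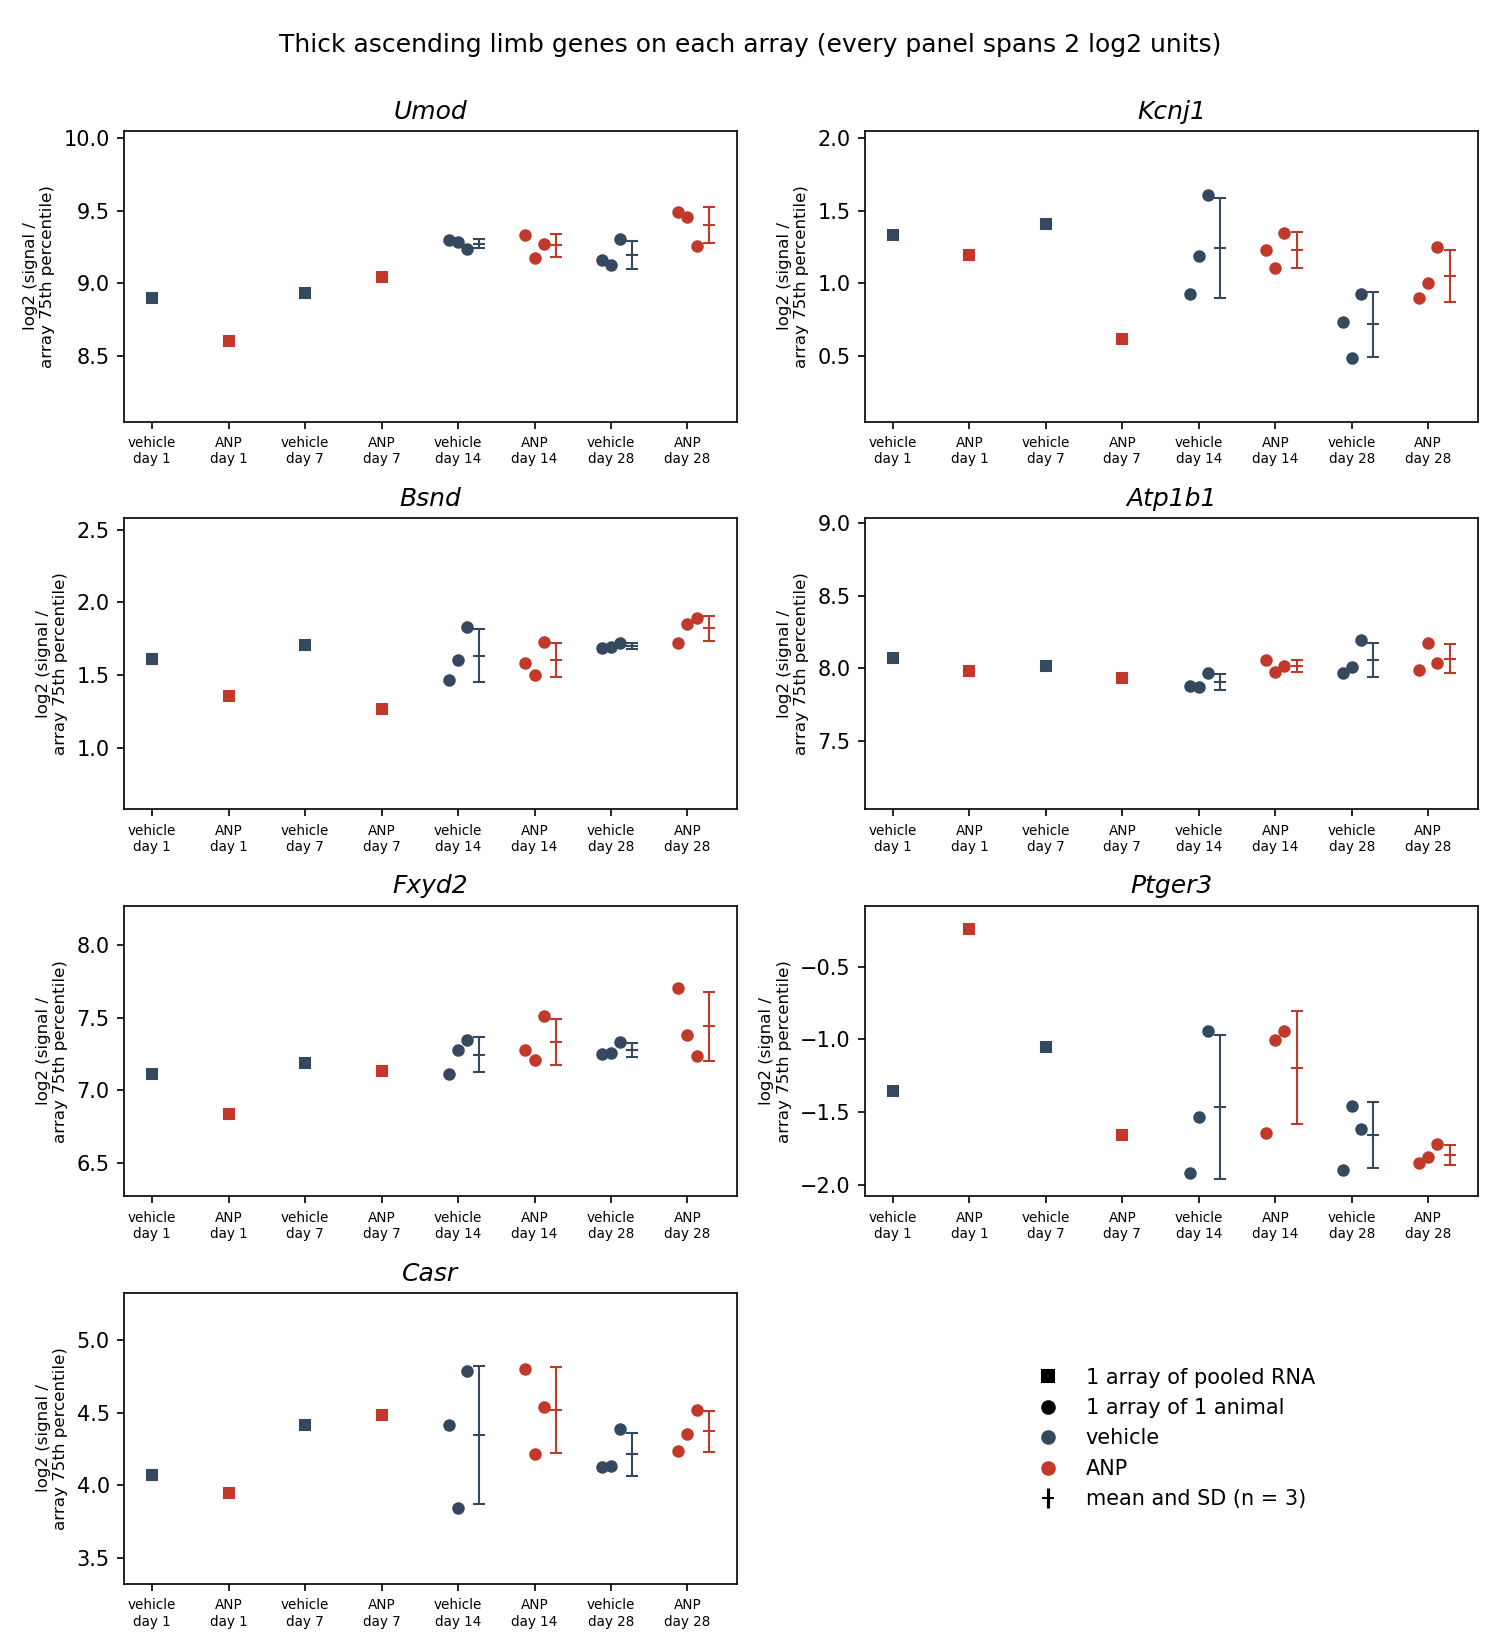
Level of each of the 7 genes on every array, as log2 of the signal over the array's 75th percentile, by treatment and day. Squares are arrays of pooled RNA, circles are arrays of 1 animal, and bars are the mean and SD of 3 animals; each panel spans 2 log2 units, and on days 14 and 28 vehicle and ANP values overlap except for Atp1b1 at day 14 and Bsnd at day 28.

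Umod encodes uromodulin, the most abundant protein of normal urine. At day 14 its level was 9.30, 9.29 and 9.24 in vehicle rats and 9.34, 9.18 and 9.27 in treated rats. The treated values bracket the vehicle values, and the log2 ratio was -0.01 (SE 0.09, 95% interval -0.21 to 0.18; limma adjusted p = 0.973). At day 28 the level was 9.16, 9.12 and 9.31 in vehicle rats and 9.49, 9.46 and 9.26 in treated rats. Treated replicates 1 and 2 were above every vehicle rat and replicate 3 was not, with a log2 ratio of 0.21 (SE 0.09, 95% interval 0.01 to 0.40). Umod alone of the 7 had an unadjusted p under 0.05 at day 28, as did 26.3% of all genes, and its limma adjusted p was 0.166. Its second probe gave a day 28 log2 ratio of 0.07. The raw Umod signal reached 57.3% to 70.1% of the scanner's saturation value, so the probe was bright on every array but not at the ceiling.

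Umod was the one gene of the 7 whose pools all sat apart from the single animals. The pools read 8.90 (vehicle) and 8.61 (ANP) on day 1 and 8.94 and 9.04 on day 7, whereas the 12 arrays of days 14 and 28 ran from 9.12 to 9.49. Both vehicle pools were below every later vehicle array. Age, pooling and slide changed together here and cannot be told apart.

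Kcnj1 encodes ROMK, the channel that recycles potassium into the lumen. At day 14 its level was 0.93, 1.19 and 1.61 in vehicle rats and 1.23, 1.11 and 1.35 in treated rats. Vehicle animals spanned a wider range than treated ones and enclosed them, and the log2 ratio was -0.01 (SE 0.18, 95% interval -0.40 to 0.38; limma adjusted p = 0.986). At day 28 the level was 0.73, 0.49 and 0.93 in vehicle rats and 0.90, 1.00 and 1.25 in treated rats. Only vehicle replicate 3 overlapped the treated group, and the log2 ratio was 0.33 (SE 0.18, 95% interval -0.06 to 0.72; limma adjusted p = 0.256). The second probe gave 0.08 at day 14 and 0.20 at day 28.

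Between the vehicle groups themselves Kcnj1 was lower at day 28 than at day 14, by a log2 ratio of -0.52 (SE 0.18, 95% interval -0.92 to -0.13; limma adjusted p = 0.085), and it was not called. In this comparison of controls none of the 7 was called, against 11.2% of all genes (7.01% higher and 4.17% lower). Only Atp1b1 had vehicle groups that did not overlap, as did 34.7% of all genes. Without vehicle replicate 1 of day 14 Kcnj1 was called, at a limma adjusted p of 0.030. With slide as a fixed block its log2 ratio was -0.52 at a limma adjusted p of 0.541, and no gene at all was called. The vehicle groups lay on different slides, so that fit joins them only through treated replicate 1 of day 14 against replicates 2 and 3. It has little precision, and the part of slide was not tested by it. The other 6 genes had vehicle log2 ratios from -0.19 to 0.15.

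Bsnd encodes barttin, a chloride channel subunit of the basolateral membrane. At day 14 its level was 1.47, 1.60 and 1.83 in vehicle rats and 1.58, 1.50 and 1.73 in treated rats. The treated values lay inside the vehicle range, with a log2 ratio of -0.03 (SE 0.10, 95% interval -0.26 to 0.20; limma adjusted p = 0.938). At day 28 the level was 1.68, 1.70 and 1.72 in vehicle rats and 1.72, 1.85 and 1.89 in treated rats. The groups did not overlap, though the nearest arrays met at 1.72 to 2 decimals, and 32.9% of all genes had groups that did not overlap. The log2 ratio was 0.12 (SE 0.10, 95% interval -0.11 to 0.35; limma adjusted p = 0.485), and the second probe, on which the groups overlapped, gave 0.02.

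Atp1b1, the beta1 subunit that brings the sodium pump to the membrane, was the least variable of the 7, with a residual SD of 0.08 on the log2 scale against a median of 0.17 over all genes. At day 14 its level was 7.88, 7.87 and 7.97 in vehicle rats and 8.06, 7.98 and 8.02 in treated rats. Every treated rat was above every vehicle rat by a narrow margin, as in 18.1% of all genes whose day 14 groups did not overlap in either direction. The log2 ratio was 0.11 (SE 0.08, 95% interval -0.08 to 0.30; limma adjusted p = 0.639). At day 28 vehicle rats read 7.97, 8.01 and 8.19 and treated rats 7.99, 8.18 and 8.04. The groups overlapped throughout and the log2 ratio was 0.01 (SE 0.08, 95% interval -0.18 to 0.20; limma adjusted p = 0.959), with a value of -0.14 under quantile normalization.

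Fxyd2, the gamma subunit that tunes the pump's affinity for its ions, read 7.11, 7.28 and 7.35 in vehicle rats and 7.28, 7.21 and 7.51 in treated rats at day 14. The log2 ratio was 0.09 (SE 0.13, 95% interval -0.19 to 0.37; limma adjusted p = 0.835). At day 28 vehicle rats read 7.25, 7.26 and 7.33 and treated rats 7.70, 7.38 and 7.24. Treated replicate 1 was the highest array of the series for this gene and treated replicate 3 the lowest of its day, and the log2 ratio was 0.16 (SE 0.13, 95% interval -0.12 to 0.44; limma adjusted p = 0.449). On the second probe the log2 ratios were 0.09 at day 14 and 0.24 at day 28.

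Ptger3 encodes EP3, a prostaglandin E2 receptor that lowers cyclic AMP in this segment, and it was the most variable of the 7, with a residual SD of 0.34. At day 14 its level was -1.92, -1.54 and -0.94 in vehicle rats and -1.64, -1.0 and -0.94 in treated rats. Vehicle replicate 3 and treated replicates 2 and 3 were high and the other 3 arrays low, so the groups overlapped. The log2 ratio was 0.27 (SE 0.25, 95% interval -0.28 to 0.82; limma adjusted p = 0.713). At day 28 the level was -1.90, -1.46 and -1.61 in vehicle rats and -1.85, -1.81 and -1.72 in treated rats. The treated rats lay inside the vehicle range, with a log2 ratio of -0.14 (SE 0.25, 95% interval -0.69 to 0.41; limma adjusted p = 0.767). Its 3 probes gave day 14 log2 ratios from 0.04 to 0.27 and day 28 log2 ratios from -0.15 to -0.12. With single arrays left out, the day 14 value ran from 0.04 (without vehicle replicate 1) to 0.53 (without vehicle replicate 3) and the day 28 value from -0.26 (without vehicle replicate 1) to -0.04 (without vehicle replicate 2).

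Casr encodes the calcium-sensing receptor, which on the basolateral side lowers salt and calcium reabsorption when blood calcium is high. At day 14 its level was 4.41, 3.84 and 4.78 in vehicle rats and 4.80, 4.21 and 4.54 in treated rats. Vehicle replicate 2 was low, the groups overlapped, and the log2 ratio was 0.17 (SE 0.22, 95% interval -0.32 to 0.66; limma adjusted p = 0.814). At day 28 the level was 4.13, 4.13 and 4.38 in vehicle rats and 4.24, 4.35 and 4.52 in treated rats. The log2 ratio was 0.16 (SE 0.22, 95% interval -0.34 to 0.65; limma adjusted p = 0.696), and its second probe gave 0.18.

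The change of the treatment difference between day 14 and day 28 was tested as an interaction. It was called for none of the 7 genes and for no gene of the 11849 with limma, while 1098 genes (9.27%) had an unadjusted p under 0.05. The interaction was largest for Ptger3, at -0.40 (95% interval -1.18 to 0.37; limma adjusted p = 0.734), and for Kcnj1, at 0.35 (95% interval -0.21 to 0.90; limma adjusted p = 0.681). These intervals and that of Casr (-0.71 to 0.68) reach past a 1.5-fold difference between days.

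Some arrays gave the highest or the lowest value of their group for most of the 7 genes. Vehicle replicate 3 of day 14 gave the highest for 6 of the 7, and vehicle replicate 3 of day 28 did so for 6 of the 7. Treated replicate 2 of day 14 gave the lowest for 6 of the 7. These were picked for their high counts, and all other such counts on days 14 and 28 ran from 0 to 5 of the 7. The counts were not set against those of all genes, so shared scatter was not tested. With slide as a fixed block, which at day 14 sets treated replicate 1 against the 3 vehicle arrays of its slide, the day 14 log2 ratios ran from -0.18 for Ptger3 to 0.46 for Casr and none was called.

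**Figure D2:**
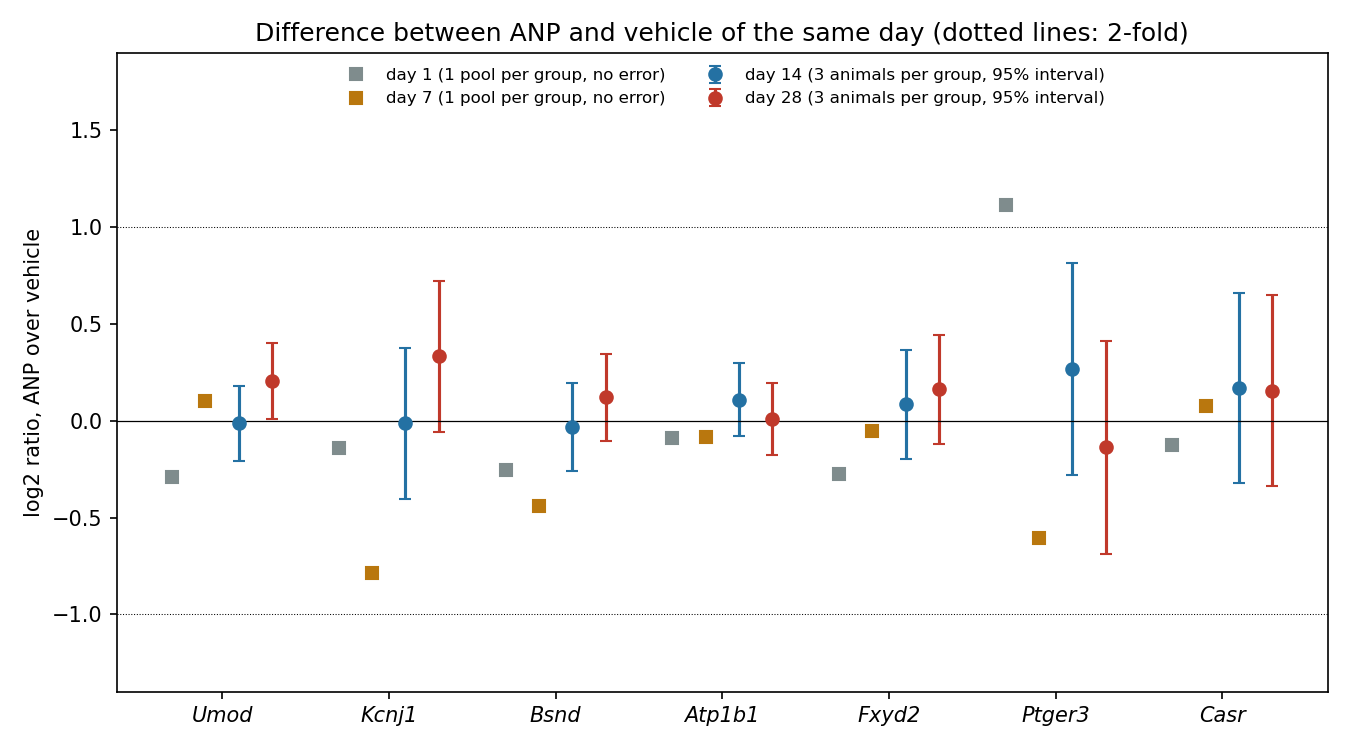
Log2 ratio of ANP over vehicle of the same day for the 7 genes. Squares are single pools of days 1 and 7, which have no error, circles are limma estimates for days 14 and 28 with 95% intervals from 3 animals per group, and the dotted lines mark 2-fold; Ptger3 at day 1 is the one point past 2-fold.

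The pools of days 1 and 7 give 1 value per group, with no replicate check and no test. On day 1 Ptger3 stood at -1.36 in the vehicle pool and -0.24 in the ANP pool, a log2 ratio of 1.11 or 2.17-fold, and its other probes gave 0.99 and 0.97. It was the only one of the 7 past 2-fold on day 1, when 9.79% of all genes were past 2-fold (4.83% higher and 4.96% lower). In size, whether higher or lower, 8.14% of all genes had a larger log2 ratio than Ptger3. The ANP pool of day 1 was the highest of the 16 arrays for this gene. The other 6 genes were lower in the ANP pool on day 1, with log2 ratios from -0.29 for Umod to -0.09 for Atp1b1.

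On day 7 the Ptger3 difference had the opposite sign, with -1.05 in the vehicle pool and -1.66 in the ANP pool, a log2 ratio of -0.60. Kcnj1 stood at 1.40 in the vehicle pool and 0.62 in the ANP pool, a log2 ratio of -0.79 that its second probe put at -0.75. Of all genes, 7.14% had a log2 ratio larger in size than that of Kcnj1 on day 7, whether higher or lower. Bsnd stood at 1.70 and 1.27, a log2 ratio of -0.44, and its second probe gave -0.50. None of the 7 was past 2-fold on day 7, when 4.65% of all genes were (2.12% higher and 2.53% lower). Umod, Casr, Atp1b1 and Fxyd2 had day 7 log2 ratios between -0.08 and 0.11. Under quantile normalization Atp1b1 and Fxyd2 had -0.24 and -0.20, and Umod had 0 on both days. That method gives equal ranks the same value, and the rank of Umod ran only from 3 to 7 over the 16 arrays. The 0 is therefore no measure of an absent difference. The spread between animals at these days was not measured.

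Markers of tubular injury stood apart in the same day 1 pools: 9 of 13 measured were at least 2-fold higher in the ANP pool and none was 2-fold lower. Of all genes, 4.83% were 2-fold higher and 4.96% lower on that day. The mean level of 12 of the injury markers was 1.17 in the vehicle pool and 3.21 in the ANP pool. Of 17 measured markers of the straight proximal tubule, the other main tubule of the outer medulla, 6 were at least 2-fold lower on day 1 and none higher. On day 7, 3 of 13 injury markers were at least 2-fold higher, as were 2.12% of all genes. The part of these shifts in the values of the 7 genes was not tested.

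Other genes were taken from 5 lists drawn up around the segment. Not all are particular to it, and some are also on the marker lists of other segments. The lists cover salt transport and its regulation, paracellular and divalent cation handling, hormone and prostanoid receptors and enzymes, sodium pump subunits, and transcription factors and other markers. They hold 106 genes besides the 7, of which 91 were tested. At day 14 none was called by limma. At day 28, 2 were called higher and 6 lower, 8.79% of the 91 against 7.11% of all genes, with a median log2 ratio of 0.01 against 0.02 for all genes. All 8, which were picked by their p, had day 28 groups that did not overlap, as did 32.9% of all genes. The interaction between days was called for none of the 91.

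In the salt transport list, 2 of 20 measured genes were called lower at day 28 and 18 were not called. Slc8a1, a sodium-calcium exchanger that is also on the list of distal convoluted tubule markers, read -1.77, -2.00 and -2.30 in vehicle rats and -4.61, -3.97 and -3.09 in treated rats, a log2 ratio of -1.86 (SE 0.40, limma adjusted p = 0.026), and all 4 of its probes were called lower when tested on their own. With normexp background correction that log2 ratio was -1.18. The bicarbonate cotransporter Slc4a7 had a log2 ratio of 1.00 (limma adjusted p = 0.161) and the kinase Sgk1 -0.72 (limma adjusted p = 0.359).

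Among 14 genes of paracellular and divalent cation handling, 1 was called higher and 1 lower at day 28. Cldn14, a claudin that closes the paracellular calcium path and that is induced through Casr, read -2.19, -4.21 and -2.04 in vehicle rats and 0.22, -0.83 and 0.37 in treated rats at day 28, a log2 ratio of 2.73 (SE 0.65, limma adjusted p = 0.035). Its second probe gave 1.28 and was not called on its own (limma adjusted p = 0.087). Averaging its probes gave 2.00. At day 14 the Cldn14 log2 ratio had the opposite sign, at -1.10 (limma adjusted p = 0.514), and was not called. Vehicle rats of day 14 read -0.56, -0.26 and 1.41, and the day 28 vehicle values were the lowest of the series for this gene. Tmem52b, a membrane protein of the distal nephron, read 3.14, 3.01 and 2.80 in vehicle rats and 2.10, 2.18 and 2.11 in treated rats, a log2 ratio of -0.85 (SE 0.22, limma adjusted p = 0.044). The parathyroid hormone receptor Pth1r had -0.57, and the pore-forming claudin pair Cldn19 and Cldn16 had 0.55 and 0.40, none called.

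Of 21 hormone and prostanoid genes 1 was called, Pde4d, a phosphodiesterase that breaks down cyclic AMP, which was lower. Pde4d had -0.97, -1.31 and -1.17 in vehicle rats and -2.33, -2.00 and -1.81 in treated rats, a log2 ratio of -0.90 (SE 0.18, limma adjusted p = 0.022). Tested on their own, 1 of its 4 probes was called, and the others gave -1.27, -0.55 and -0.50. The prostaglandin dehydrogenase Hpgd had -0.88, the EP4 receptor Ptger4 had -0.70 and the adenylyl cyclase Adcy5 had -0.39, none called. None of the 11 other sodium pump and FXYD genes was called. Of these, Atp1b2 had -0.62 and Fxyd6 had 0.29.

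Of 26 transcription factors and other markers, 1 was called higher and 2 lower at day 28. Pou3f3 (BRN1), a transcription factor needed for the loop of Henle to form, read 2.29, 2.13 and 2.41 in vehicle rats and 2.74, 2.64 and 2.80 in treated rats, a log2 ratio of 0.45 (SE 0.10, limma adjusted p = 0.027). Its second probe gave 0.13. Hsd11b2, the enzyme that inactivates glucocorticoids and that is also on the list of collecting duct markers, read 5.31, 5.27 and 5.00 in vehicle rats and 4.19, 3.97 and 4.23 in treated rats, a log2 ratio of -1.06 (SE 0.12, limma adjusted p = 0.003). Cdh16, kidney-specific cadherin, had a log2 ratio of -0.29 (SE 0.08, limma adjusted p = 0.049), and none of its 3 probes was called on its own (-0.29 to -0.12). Sim2, Hnf4a and Dusp9 had 0.97, 0.69 and 0.67, none called.

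Most of these 8 calls were lost in 1 or more fits with a single array left out. Each such fit has fewer animals, and over all genes the day 28 calls fell from 842 to between 211 and 754. Whether a loss came from the array left out or from the smaller number of animals was not tested. Without vehicle replicate 1, 2 or 3 of day 28, 1, 1 and 4 of the 8 were still called, and without treated replicate 1, 2 or 3, 1, 1 and 3 were. Genes outside the 8 (Foxi1, Irx2 and Wnk4 are named after their values were seen) brought the totals to 6 without vehicle replicate 3 (Foxi1 and Irx2), 2 without treated replicate 1 (Hpgd) and 4 without treated replicate 3 (Wnk4). Hsd11b2 kept its call in all 6 of these fits, at log2 ratios from -1.16 to -0.98. Cdh16 and Tmem52b lost theirs in all 6, Cldn14 and Pou3f3 in all but the fit without vehicle replicate 3, Pde4d in all but the fit without treated replicate 3, and Slc8a1 in the 4 that kept both of those arrays. The largest move in size was that of Cldn14, with a log2 ratio of 2.04 without vehicle replicate 2.

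**Figure D3:**
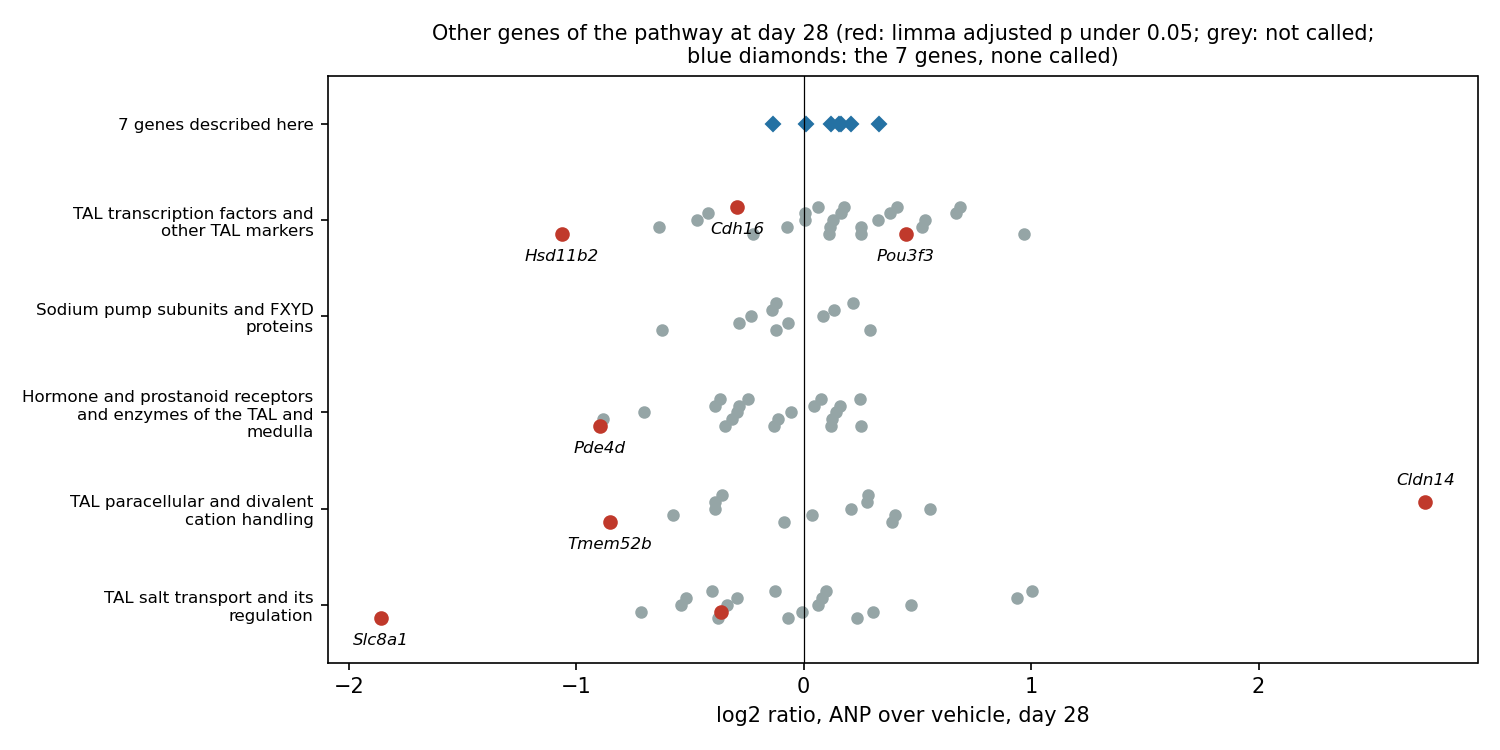
Log2 ratio of ANP over vehicle at day 28 for the 91 other genes on the thick ascending limb (TAL) lists. Some of them are also on the marker lists of other segments. Vertical offsets only separate points. Red points passed limma's adjusted p of 0.05, grey points did not, and the blue diamonds are the 7 genes, which lie between -0.14 and 0.33.

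The vehicle groups of day 28 and day 14, which lay on different slides, were also compared. Of the 91 other genes on the lists, 11 were called higher and 12 lower in vehicle rats at day 28 than at day 14. That is 25.3%, against 11.2% of all genes (7.01% higher and 4.17% lower). With slide as a fixed block, no gene was called in this comparison. That fit joins the vehicle groups only through the treated arrays of day 14 and has little precision, so the part of slide was not tested. Cldn14 was lower by a log2 ratio of -3.01 (limma adjusted p = 0.018) and Pou3f3 by -0.43 (limma adjusted p = 0.022), while Tmem52b was higher by 1.63 (limma adjusted p = 0.003), Slc8a1 by 1.76 (limma adjusted p = 0.021) and Hsd11b2 by 1.03 (limma adjusted p = 0.002). This comparison shares the day 28 vehicle arrays with the day 28 treatment comparison, so the signs of both are tied. Hsd11b2 read 4.08, 4.13 and 4.28 in vehicle rats of day 14, close to its values in treated rats of day 28.

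Markers of the cortex moved with the same arrays. The mean log2 level of 16 convoluted proximal tubule markers ran from 3.08 to 4.53 in vehicle rats of day 14, 3.16 to 3.51 in treated rats of day 14, 5.06 to 5.37 in vehicle rats of day 28 and 4.42 to 4.67 in treated rats of day 28. Of these markers 10 of 16 were called higher in vehicle rats at day 28 than at day 14, against 7.01% of all genes. So were 4 of 6 markers of the distal convoluted tubule and 7 of 12 of the glomerulus, a structure that lies in the cortex. These marker calls too were lost with slide as a fixed block, a fit that has little precision for the vehicle groups. Between treated and vehicle rats at day 28 the median log2 ratios of these 3 lists were -0.69, -1.08 and -0.68. The calls were 1 higher and 2 lower, 0 higher and 1 lower, and 0 higher and 3 lower. Of all genes, 4.47% were called higher and 2.63% lower. The mean level of the 7 genes ran from 4.17 to 4.55, 4.31 to 4.50, 4.15 to 4.32 and 4.31 to 4.35 in the same 4 groups. The 7 were chosen for function and not as markers of the segment alone. Their mean is therefore not a measure of the share of thick ascending limb RNA. The part of cortical RNA in any of these differences was not tested.

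**Figure D4:**
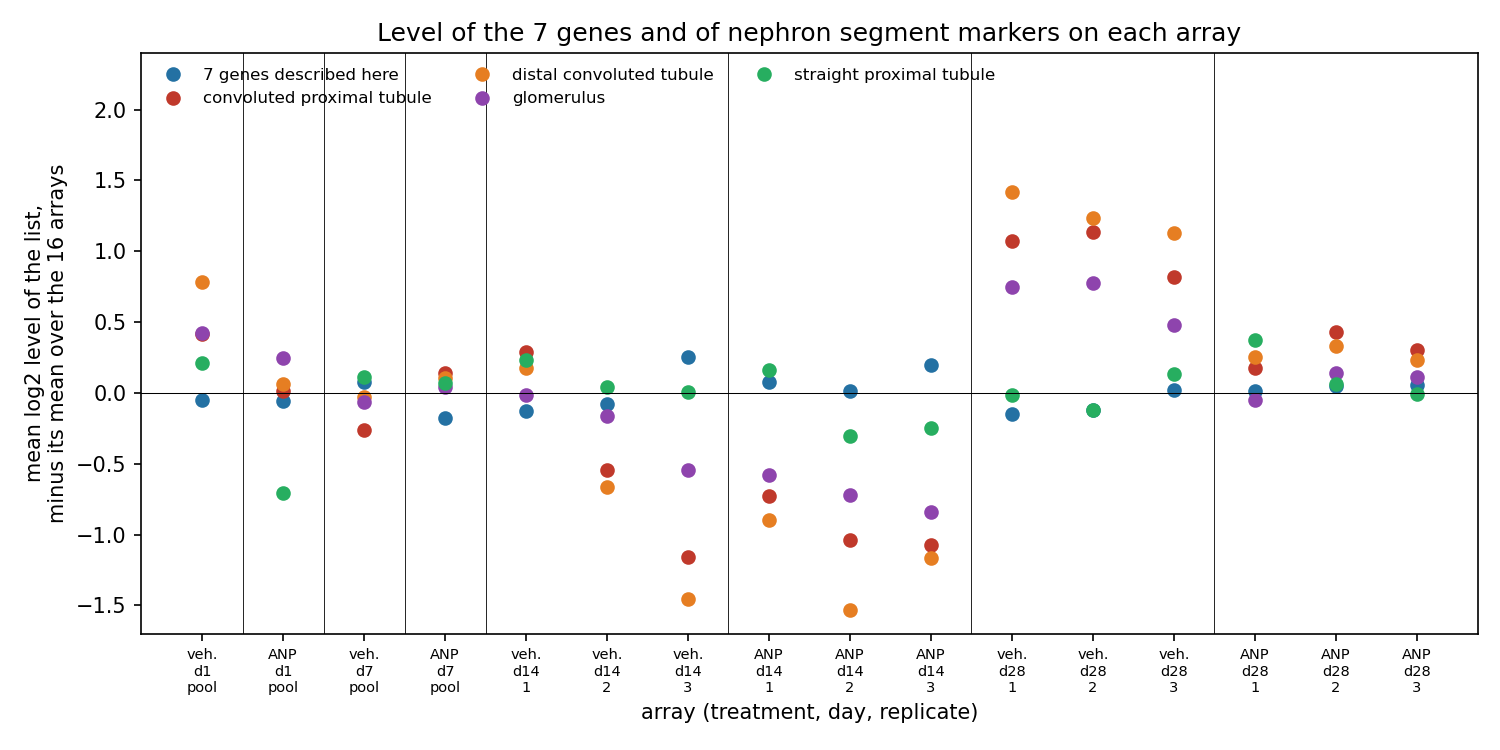
Mean log2 level of the 7 genes and of 4 marker lists on each of the 16 arrays, each list minus its own mean over the arrays; vertical lines separate groups. The 3 cortical lists stand high in vehicle rats of day 28 and low in treated rats of day 14, while the 7 genes stay between -0.18 and 0.25.

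The 7 genes did not share a single pattern over the 16 arrays. Pearson's r between pairs, given as a description over arrays that share treatment, slide and age, ran from -0.68 for Ptger3 with Umod to 0.81 for Fxyd2 with Umod. Among 11061 genes well above background on all 16 arrays, those most like the mean of the 7 were Lrp5 (r = 0.85), Tmem14a (r = 0.85), Rtn4r (r = 0.84), B3galt6 (r = 0.84), Ckmt1 (r = 0.81) and Pdgfa (r = 0.81). Umod was most like Gclc (r = 0.97) and Tgfa (r = 0.96), and Kcnj1 was most like Igf1 (r = 0.95) and Cyfip2 (r = 0.95). Bsnd was most like Nr3c2 (r = 0.85), the mineralocorticoid receptor, and Mfap3l (r = 0.84). The nearest to Atp1b1 were Pald1 (r = 0.72) and Krtap16-5 (r = 0.72), and to Fxyd2 Grcc10 (r = 0.91) and Btbd3 (r = 0.88). Ptger3 was nearest to Ccdc102a (r = 0.92) and Adgrg6 (r = 0.91), and Casr to Adipor2 (r = 0.81) and Cfap97 (r = 0.78). Each was picked for the highest r among all genes compared, so these values are high by choice.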

How the data were processed

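Outer medulla RNA of 16 samples was hybridised to 1-colour rat arrays, and the submitters' processing notes name Agilent Feature Extraction 10.7 as the authors' tool for spot intensity. The deposited processed signal intensity is linear and background-subtracted, per the file headers. A deposited table of the authors' values is a ratio: on all 16 arrays it matched the same signal over each array's 75th percentile (lowest r on the log2 scale 0.9999, medians 0.099 to 0.108). Here log2 of the deposited processed signal minus the array's 75th percentile was used, without control spots and outlier spots (0 to 9 per array). Accessions were matched to a RefSeq table of GRCr8: 27460 of 61657 probes were named and 34197 were not. A gene's probe was the one with the highest mean over the 12 arrays of days 14 and 28, kept where every array of 1 or more of the 4 groups had it well above background. These 12 arrays were fitted with limma 3.58.1 in R 4.3.3 (1 mean per group, Benjamini-Hochberg adjustment), and the fit was tested on simulated data. All other genes named were either called, among the 3 largest of their list at day 28, or nearest by correlation; some that this rule takes are not reported here. The 7 genes, the lists and the motifs were chosen with earlier results of these data known. The number of arrays limits the precision. Alternatives were other normalizations, filters, probe rules, blocks and left-out arrays.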

Additional observations from a re-analysis of the deposited data

How the results depend on the processing

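None of the 7 genes was called at day 14, at day 28 or in the interaction under any alternative run, testing each probe alone (chosen after seeing the data) included. In the vehicle comparison the number called was 1 (Kcnj1) with a replicate block, 1 with slide as a random block, and 0 to 1 with single arrays left out. The replicate numbers were not used as pairs in the main fit. Same-number deviations correlated at 0.13, 0.07 and 0.14 on day 14 and at -0.07, -0.05 and 0.11 on day 28. Those of different numbers ran from -0.18 to 0.05 on day 14, below the same-number values, and from -0.12 to 0.16 on day 28. The count of pathway genes was 1 (Adora1, named after its value was seen) at day 14 with the mean of a gene's probes. At day 28, where it was 8, it became 16 with normexp, 4 without a filter on dim probes, 4 with the mean of probes, 3 with only the groups compared, 21 with slide as a random block, and 1 to 6 with single arrays left out. The random slide block was fitted with a correlation of -0.0891 within slides, and at day 28 slide and treatment coincide. Its day 28 counts are therefore not corrected for slide. Signs near 0 turned as follows. At day 14, Umod was 0.025 with quantile normalization, 0.0055 with median scaling, 0.033 with normexp and 0.061 with slide as a fixed block. Kcnj1 was 0.0046 with median scaling, 0.049 with normexp and 0.035 with the mean of probes, and Ptger3 was -0.18 with the fixed slide block. At day 28, quantile normalization gave -0.14 for Atp1b1 and -0.00032 for Fxyd2. In the interaction, it gave -0.029 for Fxyd2, and Casr was 0.030 with median scaling, 0.027 with the mean of probes and 0.048 with the random slide block. In the vehicle comparison, Fxyd2 was -0.094 with quantile normalization, -0.0044 with normexp and -0.051 with the fixed slide block, Bsnd was -0.069 with normexp, and Umod and Casr were 0.032 and 0.30 with the fixed slide block. With single arrays left out, day 14 values ran from -0.048 to 0.030 (Umod), -0.17 to 0.17 (Kcnj1), -0.11 to 0.067 (Bsnd), -0.0018 to 0.15 (Fxyd2) and -0.083 to 0.39 (Casr), and Atp1b1 at day 28 from -0.045 to 0.077. In the interaction they ran from -0.055 to 0.18 (Fxyd2) and -0.23 to 0.24 (Casr), and in the vehicle comparison from -0.016 to 0.16 (Bsnd), -0.036 to 0.082 (Fxyd2), -0.42 to 0.069 (Ptger3) and -0.39 to 0.086 (Casr). Without a turn of sign, Ptger3 ran from 0.041 to 0.53 at day 14 and from -0.26 to -0.037 at day 28, and Fxyd2 from 0.031 to 0.26 at day 28. In the pools, quantile normalization gave 0 for Umod on both days, -0.024 for Atp1b1 on day 1, and -0.24, -0.20 and -0.0067 for Atp1b1, Fxyd2 and Casr on day 7. The 0 for Umod is what quantile normalization gives to equal ranks. The cause of the turns of sign was not tested. Over all genes the calls were 57 at day 14 (87 with normexp, 133 with the random slide block, 28 without a filter, 22 with only the groups compared, 36 with a replicate block, 0 with the fixed slide block, 1 to 56 with arrays left out) and 842 at day 28 (1325, 1857, and 431 with only the groups compared, 211 to 754), and 1325 in the vehicle comparison (2202 with the random slide block, 627 with only the groups compared, 0 with the fixed slide block, 430 to 1596 with arrays left out). Slide as a fixed block could not be fitted for day 28.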
